A study of Mus musculus with 2 samples.

Results

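Lipid-associated macrophages are macrophages of obese adipose tissue and steatotic liver that take up and degrade lipid, and 10 of the genes by which they are usually recognised were followed here: Trem2, Tyrobp, Gpnmb, Cd9, Lgals3, Fabp5, Lpl, Lipa, Ctsb and Ctsd. The members were the rows of the deposited matrix with these symbols, and each of the 10 was found once among 32285 genes. The matrix came from droplet single-cell RNA sequencing of liver cells of mice fed HFCFD, whose fat, cholesterol and fructose contents are all high; the labels give it as 40%, fed for 2 weeks. One sample was labelled Cebp KO and the other Cebp WT, and both received the diet, so no chow-fed liver was compared. The study describes the knockout as specific to hepatocytes, made by crossing Cebpa fl/fl mice with albumin-cre mice and backcrossing to C57BL/6N. Age, sex and the number of mice per sample are not given in the labels, and the study states that its mice were all male. Cells were obtained by perfusion and digestion of the liver followed by a Percoll gradient. The matrix joins 2 libraries, told apart by a barcode suffix of 1 or 2. Since the labels do not say which suffix is which sample, they are called library 1 and library 2 by their suffix, and their values are given side by side without a genotype. An albumin-driven Cre acts in hepatocytes, so the macrophages described here carry no deletion by design.

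As background, Trem2 is a lipid-sensing receptor of the myeloid cell surface, and Tyrobp (DAP12) is the adaptor through which it signals. Cholesteryl esters and triglycerides taken up by a macrophage reach the lysosome, where lysosomal acid lipase, encoded by Lipa, hydrolyses them and cathepsins such as Ctsb and Ctsd digest protein. In the liver the resident macrophages are Kupffer cells, which in mice are marked by Clec4f and, when of embryonic origin, by Timd4. Macrophages that arrive from blood monocytes at first lack both.

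Library 1 held 17313 barcodes and 60048646 unique molecular identifiers (UMIs), and 11617 of its barcodes (67.1%) had at least 500 UMIs, at least 200 genes and at most 25% mitochondrial UMIs. Library 2 held 52355243 UMIs, 6088 of its 15003 barcodes (40.6%) were kept, and the median mitochondrial share of its barcodes was 41.3%, against 4.07% in library 1. The libraries shared 81 barcodes, 34 of them among kept cells, and no C1q-positive cell of one library shared its barcode with a C1q-positive cell of the other, while 1 and 6 C1q-positive cells shared theirs with some other kept cell of the other library. Each cell was assigned to a class by fixed marker genes. C1q-positive macrophages were cells with at least 3 UMIs from at least 2 of C1qa, C1qb and C1qc that made up at least 0.2% of their UMIs. There were 282 such cells in library 1 and 435 in library 2, and another 46 and 84 cells that passed this gate were left out because they also passed that of another class (passing the monocyte or conventional dendritic cell gate as well was allowed). Of the 282 and 435 cells, 254 and 411 had a UMI of Clec4f or Timd4, and 28 and 24 had none. Levels are given as CPM, the UMIs of a gene scaled to a class total of 1000000 UMIs, with an exact Poisson 95% interval. With 1 library per sample no test was possible, and intervals cover counting error only.

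The cells were checked with genes that took no part in the C1q gate or in the split, of which Ccr2 and Ly6c2 also belong to the monocyte gate. Vsig4, a complement receptor of Kupffer cells, had 1947 CPM in library 1 and 1997 CPM in library 2 in cells with Clec4f or Timd4. In cells without them it had 17.6 and 91.2 CPM. Cd163, a scavenger receptor, had 0 UMIs in the cells without Clec4f or Timd4, which made it at least 29.0-fold lower in library 1 and at least 16.3-fold lower in library 2 when 3 UMIs per library were set as the floor. Ccr2, the chemokine receptor of inflammatory monocytes, had 241 and 274 CPM in the cells without Clec4f or Timd4, against 11.6 and 6.18 CPM in those with. Csf1r, the macrophage growth factor receptor, was found in both classes, at 880 and 456 CPM in cells without and at 1170 and 1186 CPM in cells with these genes. Cd5l, a secreted scavenger protein of Kupffer cells, was found in 5 of the 28 and 7 of the 24 cells without Clec4f or Timd4, so a part of these cells held Kupffer cell transcripts. The cells without Clec4f or Timd4 had median depths of 6470 and 4614 UMIs against 9237 and 6961. Of the 4 monocyte-derived markers analysed here (Ccr2, Cx3cr1, Itgax and Ly6c2), Ly6c2 was at 0 UMIs in the cells without Clec4f or Timd4 in library 1 and at 8 UMIs in library 2. Clec7a was not analysed here.

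In both libraries the 10 genes did not move together between the macrophage classes. Trem2 and Cd9 had 6.38- to 11.5-fold higher levels in C1q-positive cells without Clec4f or Timd4, the lysosomal genes Ctsb and Ctsd and the lipase gene Lpl had 2.24- to 4.93-fold lower levels, and Tyrobp had similar levels in both. A gene was compared when it had at least 50 CPM in either class, and it was called when its ratio was at least 2 with 3 UMIs added to both sums. The smaller class had fewer UMIs in all, so the added UMIs raised its low levels more (3 UMIs were 17.6 CPM of it in library 1 and 24.9 CPM in library 2), which moved low genes toward a higher call. Ratios given with an interval are without added UMIs. By that rule 2 of 8 compared members in library 1 (Trem2, Cd9) and 3 of 9 in library 2 (Trem2, Cd9, Fabp5) were called higher in the cells without Clec4f or Timd4. Trem2, Cd9 and Fabp5 passed the 50 CPM limit only through the class in which they were high, so these counts of higher members describe the members and support nothing further. The Fabp5 call ended, with 4 of its 8 UMIs gone and 38.4 CPM left, when the 2 cells that also passed the monocyte or dendritic cell gate were left out. Over all compared genes, 13.4% of 4381 were called higher in library 1 and 15.3% of 4079 in library 2. Lower members numbered 3 in library 1 (Lpl, Ctsb, Ctsd) and 4 in library 2 (Lpl, Lipa, Ctsb, Ctsd), where 6.05% and 6.55% of all compared genes were called lower. The median log2 ratio of the compared members was -0.45 in library 1 and 0.09 in library 2, and that of all compared genes was 0.18 and 0.17. The members lay on both sides of 0, so their median says little about any of them.

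**Figure D1:**
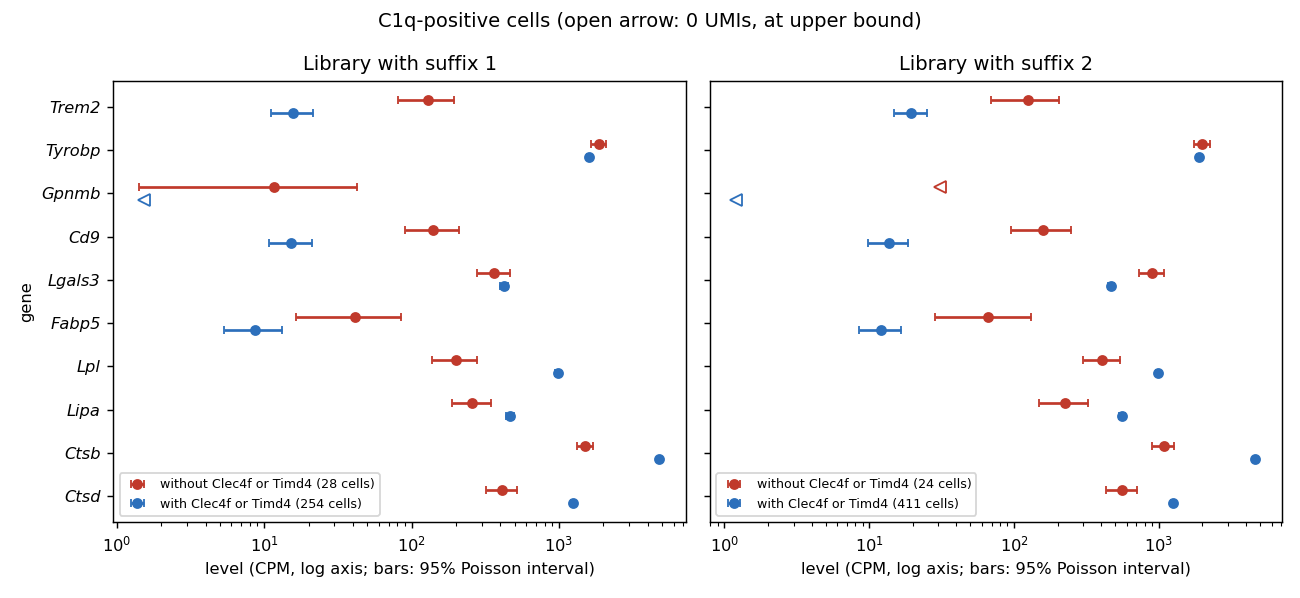
Level of each gene in C1q-positive cells without (red) and with (blue) a UMI of Clec4f or Timd4, in CPM on a log axis, with exact Poisson 95% intervals as bars; an open arrow marks 0 UMIs at the interval's upper bound. Trem2 (129 against 15.7 CPM in library 1) and Cd9 (141 against 15.3 CPM) lie further right in red, while Ctsb (1514 against 4763 CPM), Ctsd and Lpl lie further right in blue.

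Trem2 had 22 UMIs in 11 of the 28 cells without Clec4f or Timd4 in library 1, or 129 CPM (interval 80.9 to 195), and 38 UMIs in 23 of the 254 cells with these genes, or 15.7 CPM (11.1 to 21.5). The ratio was 8.22 with a counting interval of 4.63 to 14.3. In library 2, 15 UMIs in 10 of 24 cells gave 124 CPM (69.6 to 205), and 60 UMIs in 42 of 411 cells gave 19.5 CPM (14.9 to 25.1), a ratio of 6.38 (3.36 to 11.4). The intervals of the classes did not overlap in either library, and no single cell held more than 5 of the 22 or 2 of the 15 UMIs. Most Trem2 UMIs of the kept cells nevertheless lay in C1q-positive cells as a whole, 60 of 88 in library 1 and 75 of 110 in library 2, or 68.2% in each. The larger part of these came from the more numerous cells with Clec4f or Timd4.

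Tyrobp, the partner of Trem2, had 1860 CPM in the cells without Clec4f or Timd4 and 1613 CPM in those with, in library 1, a ratio of 1.15 (1.03 to 1.29). In library 2 it had 1990 and 1892 CPM, a ratio of 1.05 (0.921 to 1.20). The Tyrobp ratio was thus close to 1 in the classes whose Trem2 levels differed. Tyrobp serves several other receptors of myeloid and NK cells, and its highest level was in plasmacytoid dendritic cells, at 4336 CPM in library 1 and 3875 CPM in library 2. Monocytes (2888 and 2629 CPM) and neutrophils (2742 and 2516 CPM) came next, and their intervals overlapped each other in both libraries.

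Cd9, a tetraspanin of the cell membrane, had 141 CPM (90.2 to 210) in the cells without Clec4f or Timd4 and 15.3 CPM (10.8 to 21.1) in those with, in library 1. In library 2 it had 158 CPM (94.9 to 246) and 13.7 CPM (9.84 to 18.5). The ratios were 9.21 (5.27 to 15.8) and 11.5 (6.34 to 20.3), although 1 cell held 9 of the 19 UMIs of the smaller class in library 2. Cd9 was not particular to macrophages. Its highest level was in neutrophils, at 361 CPM in library 1 and 229 CPM in library 2, and conventional dendritic cells had 135 and 168 CPM. In library 2 the neutrophil interval (148 to 338) overlapped those of the dendritic cells and of the C1q-positive cells without Clec4f or Timd4. In the cells with Clec4f or Timd4, Cd9 was not above the 16.5 and 19.9 CPM of B cells, which should have few of these transcripts and were used as a measure of free RNA.

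Gpnmb, a transmembrane glycoprotein of lipid-laden macrophages, was hardly detected in C1q-positive cells. It had 0 UMIs in the 665 cells with Clec4f or Timd4 of both libraries, 254 in library 1 and 411 in library 2, where the Clopper-Pearson 95% interval of the share of cells with a UMI reached up to 1.44% and 0.894%. In the 52 cells without them it had 2 UMIs, both in 1 cell in library 1. That cell had 16763 UMIs and also held 2 UMIs of Trem2, 1 of Cd9, 23 of Lgals3 and 8 of Ccr2. The monocyte class had 11 UMIs in library 1 and 5 in library 2, each in 1 cell. The monocyte with 11 Gpnmb UMIs also held 4 UMIs of Trem2, 31 of Ctsb and 28 of Ctsd, and the one with 5 held 5 UMIs of Cd9, 63 of Lgals3 and 3 of Spp1. These cells were described after their values were seen. T cells had 1 or 2 Gpnmb UMIs per positive cell, 10 in 10 of 582 cells in library 1 and 19 in 17 of 543 in library 2. Kept cells of library 2 held 41 Gpnmb UMIs in all, a part of them outside the classes given a level. Cells left out for passing more than 1 gate, of which 46 and 84 passed the C1q gate, are not in the counts of C1q-positive cells.

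Fabp5, a carrier of fatty acids inside the cell, had few UMIs in macrophages. In library 1 it had 7 UMIs (41.1 CPM, 16.5 to 84.6) in the cells without Clec4f or Timd4, 6 of them in 1 cell, and it was below the 50 CPM needed for a comparison. In library 2 it had 8 UMIs in 3 cells (66.3 CPM, 28.6 to 131) against 37 UMIs in 31 cells (12.0 CPM, 8.47 to 16.6), a ratio of 5.52 (2.22 to 12.0). Of these 8 UMIs, 4 lay in 1 cell, which also held 8 UMIs of Ly6c2, and without that cell the level was 34.9 CPM, under the limit for a comparison. Its level in the cells with Clec4f or Timd4 was 8.68 and 12.0 CPM, within the B-cell intervals of 4.84 to 20.1 and 8.42 to 30.2 CPM. Endothelial cells had the highest level, at 241 and 407 CPM. In monocytes in library 2, where the level was 164 CPM, 26 of 35 UMIs came from 1 cell.

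Lgals3 encodes galectin-3, a carbohydrate-binding protein secreted by activated macrophages. In library 1 it had 364 CPM in the cells without Clec4f or Timd4 and 422 CPM in those with, and these intervals overlapped (279 to 466 and 396 to 449). In library 2 it had 896 CPM (735 to 1081) against 466 CPM (442 to 491), a ratio of 1.92 (1.57 to 2.34). In that library 51 of the 108 UMIs of the smaller class lay in 1 cell, which had 2 UMIs of C1qa, 22 of C1qb and 8 of Ly6c2. The 5 monocyte gate genes summed to 258 and 448 CPM in the cells without Clec4f or Timd4 (3 and 4 genes detected, most of it the Ccr2 given above), to at most 13.6 CPM in those with, and to 3450 and 2535 CPM in monocytes, and their part in the Lgals3 and Trem2 levels was not tested. When the 2 cells that also passed the monocyte or dendritic cell gate were left out, the level was 423 CPM and the log2 ratio -0.05. The highest level of Lgals3 was in monocytes, at 1170 CPM in library 1 and 1558 CPM in library 2.

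Lpl encodes lipoprotein lipase, which releases fatty acids from circulating triglyceride. The cells with Clec4f or Timd4 had 983 CPM (944 to 1023) in library 1 and 986 CPM (951 to 1021) of it in library 2. In the cells without them it had 199.5 CPM (138 to 279) and 406 CPM (301 to 537), which was 4.93-fold lower (3.52 to 7.13) and 2.43-fold lower (1.83 to 3.29). In the smaller class, 20 of 34 UMIs and 17 of 49 UMIs came from 1 cell each, and without these cells Lpl was 11.1-fold (6.61 to 20.4) and 3.36-fold (2.37 to 4.92) lower. With cells of at least 3% hepatocyte share left out, the log2 ratio in library 2 was -0.91, short of the limit. When cells with a UMI of Vsig4 or Cd5l were also counted as Kupffer-marked, the log2 ratio went from -2.18 to -3.39 in library 1 (23 cells without) and from -1.19 to -3.21 in library 2 (13 cells without).

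The cells with Clec4f or Timd4 had 465 CPM (438 to 493) of Lipa in library 1 and 557 CPM (531 to 584) of it in library 2, and those without had 258 CPM (188 to 347) and 224 CPM (148 to 326). Lipa, the lysosomal acid lipase gene, was 1.80-fold lower (1.33 to 2.49) in library 1, which did not reach the limit of 2, and 2.49-fold lower (1.70 to 3.79) in library 2, where 1 cell held 13 of the 27 UMIs of the smaller class and the ratio without it was 4.34 (2.58 to 7.96). That call ended, at a log2 ratio of -0.99, when cells with a hepatocyte share of at least 3% were left out, which kept 10 cells of the smaller class. The intervals of the classes did not overlap in either library.

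Ctsb and Ctsd encode the cysteine protease cathepsin B and the aspartic protease cathepsin D. Among the cells with Clec4f or Timd4, Ctsb was at 4763 CPM (4676 to 4850) in library 1 and at 4638 CPM (4562 to 4715) in library 2. Among those without, it was at 1514 CPM (1335 to 1710) and at 1078 CPM (901 to 1280). It was 3.15-fold lower (2.78 to 3.57) and 4.30-fold lower (3.62 to 5.15) in the latter. Ctsd had 1246 and 1244 CPM in the cells with, and 411 CPM (320 to 519) and 556 CPM (431 to 706) in the cells without, which was 3.03-fold lower (2.39 to 3.90) and 2.24-fold lower (1.76 to 2.89). With C1q-positive cells thinned to 2000 UMIs before the split, the log2 ratio of Ctsd was -0.78 in library 1 and -0.46 in library 2, short of the limit in both, and that of Lpl in library 1 was -0.97. The cells without Clec4f or Timd4 had a higher median share of hepatocyte transcripts, 2.96% and 3.38% against 2.02% and 2.48%. The 7 endothelial gate genes summed to 480 and 469 CPM in the cells with Clec4f or Timd4, to 17.6 and 41.5 CPM in those without (2 and 3 of the 7 detected), and to 10392 and 8454 CPM in endothelial cells. The part of these transcripts in the differences was not tested.

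In the cells in which Trem2 was higher, Ctsd was called lower in both libraries and Lipa in library 2 only. Stretches of their promoters are shown for that reason. RefSeq windows (build GRCm38.p6, from 250 bases before to 50 after the start site) matched 6 of the 10 genes: Trem2, Gpnmb, Cd9, Lgals3, Lipa and Ctsd. Both strands were searched for CACGTG, the E-box core bound by the lysosomal regulators of the Tfeb family, and for TCACGTG, which contains it. GAGGAAG, a form of the motif of the myeloid factor PU.1, was searched as well. So was TGANTCA, a loose form of the motif of AP-1 in which N is any base (A in the Trem2 stretch below). Of 32851 windows of this length, 7.15% held CACGTG, 3.77% TCACGTG, 13.6% GAGGAAG and 7.81% TGANTCA. Among the 6 matched members, CACGTG and TCACGTG were found in Ctsd only, at 2 places. One of these lies before both the RefSeq start and the farther GENCODE start and is shown, and the other lies inside the gene as GENCODE draws it. GAGGAAG was found in Trem2 and Lipa, and TGANTCA in Trem2 and, past its start site, in Gpnmb. The stretches below are on the strand of the gene, 5′ to 3′, with the motif or its reverse complement in capitals, and that of Ctsd is at chr7:142388056-142388077, those of Trem2 at chr17:48346349-48346377 and chr17:48346381-48346400, and that of Lipa at chr19:34527640-34527668.
Ctsd, E-box: tccccCACGTGacctgtatcca
Trem2, PU.1 form: agcctcctttcCTTCCTCcctccctcacg
Trem2, AP-1: ttctccctcctTGAATCAca
Lipa, PU.1 form: ctttgaagcagGAGGAAGctctggctggg
These matches describe letters in the windows and say nothing about binding in these cells.

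**Figure D2:**
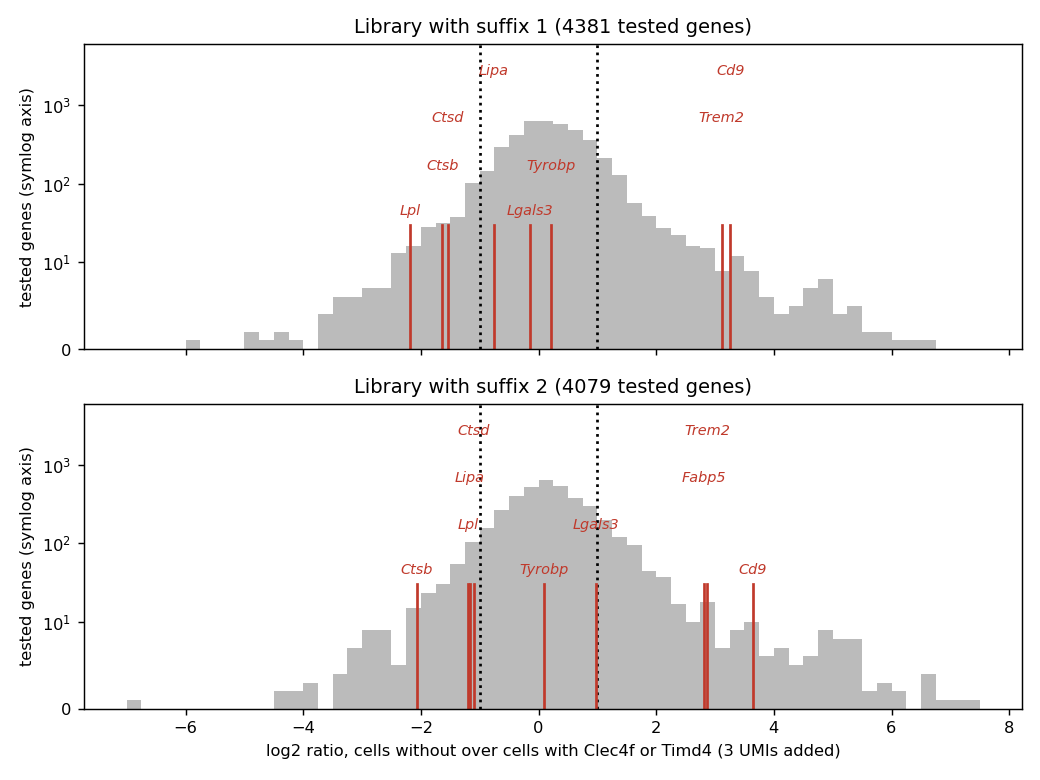
Log2 ratio of C1q-positive cells without over with Clec4f or Timd4 for every compared gene (grey, 4381 genes in library 1 and 4079 in library 2, symlog count axis), with 3 UMIs added to both sums. Red lines mark the compared members and dotted lines the limits of a 2-fold difference: Cd9 and Trem2 lie right of them in both libraries, and Ctsb, Ctsd and Lpl lie left.

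Genes with a ratio in the same direction in both libraries were ordered by the smaller of the absolute log2 ratios. Ctsb ranked 55, Lpl 92, Ctsd 107 and Lipa 206 of 1064 that were lower in the cells without Clec4f or Timd4. The 5 leading higher genes were Negr1, Cx3cr1, Cd93, Mef2c and Myo5a, and Cx3cr1, the fractalkine receptor, had 464 and 224 CPM against 8.26 and 4.55 CPM. The 5 leading lower genes were C6, Vsig4, Cd163, Folr2 and Il18bp, and C6, a component of the complement attack complex, had 23.5 and 33.2 CPM against 1045 and 1137 CPM. None of the members was among the leading genes of either direction.

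In the cells with Clec4f or Timd4, the members' levels in the 2 libraries lay close together. None of the 6 members compared there differed by 2-fold or more, against 1.26% of 3876 genes. Ctsb, Ctsd and Lpl had ratios of library 1 to library 2 of 1.03, 1.00 and 0.997. Tyrobp, at 0.853 (0.819 to 0.888), Lipa, at 0.834 (0.773 to 0.900), Lgals3, at 0.905, and Ctsb had intervals that did not hold 1, but these cover counting error only and not the spread between mice. In the smaller class without these genes, 13.7% of 4122 genes were called apart, and 1 of 9 compared members was, Lgals3, at 364 and 896 CPM, of which the latter rested on the cell described above. Lpl, at 199.5 and 406 CPM, was 2.04-fold lower (1.29 to 3.25) in library 1 and fell just short of the limit with the added UMIs. Genotype and library cannot be told apart, so none of these values is a comparison of Cebp KO with Cebp WT.

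Across all 14 classes with at least 20 cells, 5 of the 10 members had their highest level in a C1q-positive class in each library: Trem2 in the cells without Clec4f or Timd4, and Lpl, Lipa, Ctsb and Ctsd in the cells with them. Of all genes with at least 50 CPM in a class, 13.9% of 7638 in library 1 and 13.7% of 7467 in library 2 had their highest level in a C1q-positive class. Against B cells, 7 of the 10 members had a level in C1q-positive cells whose interval lay above the B-cell interval (Trem2, Tyrobp, Lgals3, Lpl, Lipa, Ctsb and Ctsd), as did 28.8% and 27.7% of these genes. Gpnmb, Cd9 and Fabp5 did not, although Cd9 in the cells without Clec4f or Timd4 alone lay above the B-cell interval in both libraries. In library 2 Gpnmb reached at most 23.4 CPM in a class, so it was not among the genes with at least 50 CPM there.

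**Figure D3:**
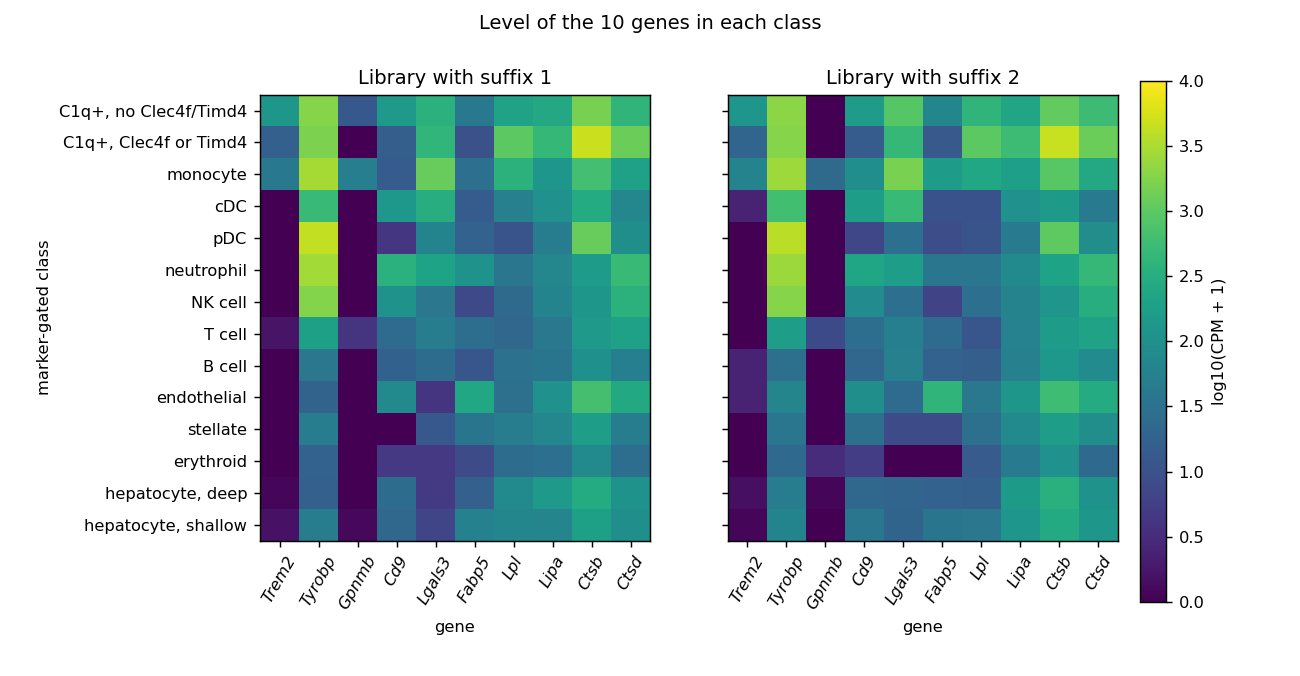
Level of the 10 genes, as log10(CPM + 1) in colour, in each marker-gated class (rows) of the libraries. Trem2 is above 15 CPM only in the C1q-positive classes and monocytes, while Tyrobp is brightest in plasmacytoid dendritic cells (4336 and 3875 CPM) and Fabp5 in endothelial cells (241 and 407 CPM).

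Trem2 was followed in the order by monocytes, at 41.1 CPM (18.8 to 78.1) in library 1 and 60.8 CPM (32.4 to 104) in library 2. In library 1 these did not overlap the cells without Clec4f or Timd4, and in library 2 they did. In library 2 the C1q-positive cells without Clec4f or Timd4 were 2.05-fold (0.908 to 4.67) higher than monocytes. Without the monocyte with most Trem2 UMIs (3 of 13) they were 2.58-fold (1.08 to 6.42) higher. In library 1, 4 of the 9 monocyte UMIs lay in 1 cell, and without it monocytes had 23.7 CPM and the C1q-positive cells without Clec4f or Timd4 were 5.45-fold (2.02 to 18.4) higher, against 3.14-fold (1.39 to 7.74) with it. The cells with Clec4f or Timd4 came next, at 15.7 and 19.5 CPM, and in library 1 their interval overlapped that of monocytes. No class outside the C1q-positive cells and monocytes exceeded 1.53 CPM. The comparison of the C1q-positive cells without Clec4f or Timd4 with monocytes separated the members further. Ctsd was 2.09-fold (1.41 to 3.13) and 2.16-fold (1.49 to 3.14) higher in the C1q-positive cells, but 28 of the 43 monocyte UMIs in library 1 lay in 1 cell, the one with 11 Gpnmb UMIs, and without it the ratio was 5.78 (3.28 to 10.9). In contrast, Lgals3 was 3.22-fold (2.43 to 4.32) and 1.74-fold (1.40 to 2.18) higher in monocytes. Ctsb was 2.37-fold (1.92 to 2.93) higher in the C1q-positive cells in library 1 and 1.16-fold (0.926 to 1.46) in library 2. Lpl was 1.86-fold (1.23 to 2.86) higher in monocytes in library 1, yet 1.67-fold (1.11 to 2.52) higher in the C1q-positive cells in library 2. The first of these rested on 1 monocyte with 46 of the 81 UMIs: without it monocytes had 166 CPM, and the C1q-positive cells were 1.20-fold (0.727 to 1.98) higher.

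For the lysosomal genes, other classes came close to the C1q-positive cells without Clec4f or Timd4. Plasmacytoid dendritic cells had 1174 and 1035 CPM of Ctsb, and in library 2 their interval overlapped that of the C1q-positive cells without Clec4f or Timd4. Neutrophils had 521 and 467 CPM of Ctsd, above those cells in library 1 and below them in library 2, with overlapping intervals in both. Monocytes had 123 and 182 CPM of Lipa, and in library 2 their interval overlapped that of those cells. Lipa in hepatocytes of at least 5000 UMIs had 143 and 152 CPM, and Lpl in these hepatocytes had 77.0 and 15.8 CPM, a level that differed more between the libraries than in macrophages.

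At a depth of 2000 UMIs per cell, with shallower cells left out, 17 and 16 cells without and 236 and 381 cells with Clec4f or Timd4 remained. A Trem2 UMI was found in 2 of 17 and 7 of 16 cells without these genes (11.8% and 43.8%), in 5 of 236 and 10 of 381 with them (2.12% and 2.62%), and in 0 of 181 and 1 of 155 B cells. At 1000 UMIs it was found in 2 of 23 and 2 of 22 cells without and in 5 of 251 and 5 of 405 with. Before thinning the Trem2 shares were 39.3% and 41.7% in cells without and 9.06% and 10.2% in cells with. Lpl was found in 3 of 17 and 4 of 16 cells without and in 75.8% and 78.0% of cells with, against 4.97% and 3.23% of B cells, and before thinning in 42.9% and 41.7% of cells without and 90.6% and 92.2% of cells with. Ctsd was found in 5 of 17 and 8 of 16 cells without and in 89.8% and 87.7% of cells with, against 7.73% and 14.2% of B cells, and before thinning in 64.3% and 58.3% of cells without and 97.6% and 94.4% of cells with. Median depths before thinning were 3725 and 3098 UMIs in B cells. The shares followed the order of the CPM values for these genes. For Trem2, however, the intervals of the macrophage classes overlapped in library 1 at 2000 UMIs (1.46% to 36.4% against 0.691% to 4.87%). At 1000 UMIs they overlapped in both libraries.

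**Figure D4:**
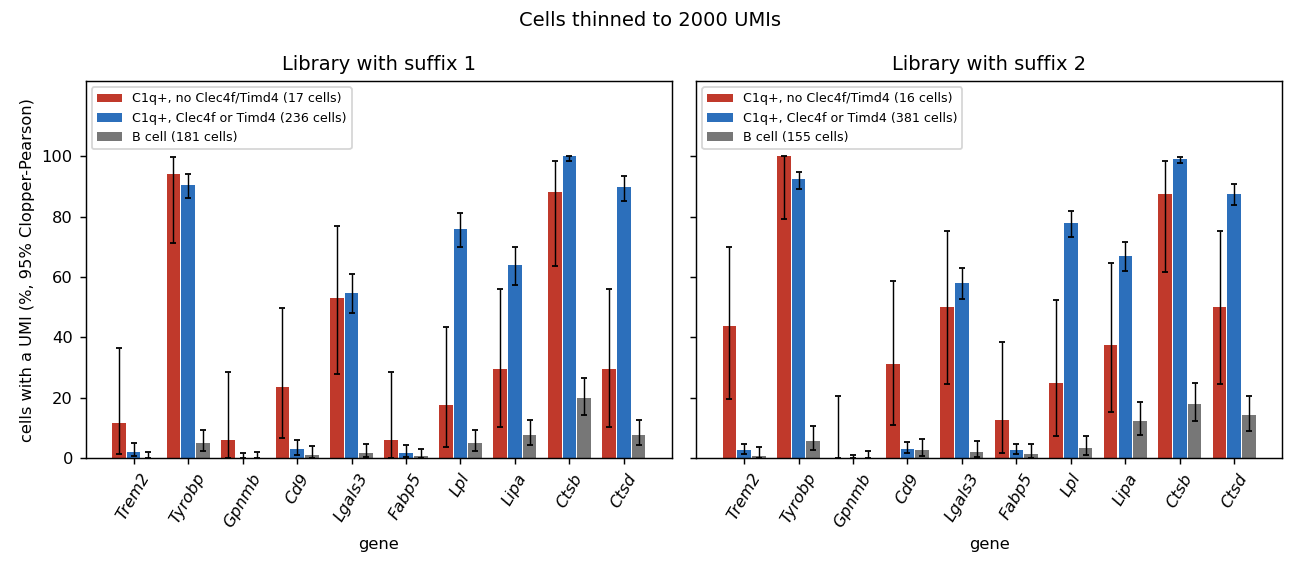
Share of cells with at least 1 UMI of each gene after thinning to 2000 UMIs (bars, percent, with Clopper-Pearson 95% intervals) in C1q-positive cells without (red) and with (blue) Clec4f or Timd4 and in B cells (grey). Lpl (17.6% against 75.8% in library 1) and Ctsd (29.4% against 89.8%) are lower in red, and Trem2 in red is at 11.8% in library 1 and 43.8% in library 2, each from few cells.

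The same thinned cells held a median of 4 and 5 of the 10 genes in cells without Clec4f or Timd4 and 5 and 5 in cells with, against 3 and 4 in monocytes and 0 and 0 in B cells. No C1q-positive cell held more than 7 of the 10. At 1000 UMIs per cell, with 23 and 22 cells without and 251 and 405 with, the medians were 3 and 2 against 4 and 4, and 2 and 3 in monocytes. In library 2 the medians of the macrophage classes were equal at 2000 UMIs and apart at 1000.

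Over the 28 class levels of both libraries, each member's log2(CPM + 10) was compared with 8066 genes. The most alike were Ms4a7 (r = 0.97) and Cx3cr1 (0.92) for Trem2, Fcer1g (0.95) for Tyrobp, Csf2ra (0.95) and Lyz2 (0.92) for Lgals3, Fcgr1 (0.92) for Lpl, Acp2 (0.91) for Lipa, Grn (0.95) for Ctsb and Hgsnat (0.92) for Ctsd. Cd9 and Fabp5 had lower values, 0.80 with Rin3 and 0.78 with Vamp5. Gpnmb had 0.94 with Ms4a4a, and its highest level in each library was that of monocytes, held by the single cells described above. Between members, Lpl and Lipa had r = 0.83 and Lipa and Ctsb 0.80, while Trem2 and Cd9 had 0.24. Classes of one library share depth and free RNA, so these values are descriptions.

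Related genes were counted by list in the same comparison. Of 19 compared genes of lysosome and cholesterol handling, 2 were higher and 3 lower in the cells without Clec4f or Timd4 in library 1, and 1 was higher and 3 lower in library 2, where 13.4% and 15.3% of all compared genes were higher and 6.05% and 6.55% lower, with median log2 ratios of -0.36 and -0.03. Cd63, a lysosomal tetraspanin, had the highest ratio, at 241 CPM against 5.78 CPM (41.6-fold, 22.2 to 82.6) and 166 against 10.4 CPM (15.9-fold, 8.64 to 28.7). Lgmn, an endopeptidase of the lysosome, and Grn, the progranulin gene, were lower in both libraries, Grn at 522 and 307 CPM against 1295 and 1272 CPM. Cd36, a fatty acid and lipoprotein receptor, was 4.03-fold lower (2.11 to 8.86) in library 1 and 2.22-fold lower (1.23 to 4.46) in library 2, where the added UMIs left it short of the limit. Apoe was 2.07-fold higher (1.99 to 2.14) in library 1 and 1.99-fold higher (1.92 to 2.06) in library 2, on either side of the limit, and Abca1, the cholesterol exporter, lower in library 2. Apoe is also a major hepatocyte transcript. The higher hepatocyte share of these cells is given above, and its part in the Apoe ratio was not tested.

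Of the genes of Trem2 and Tyrobp signalling, 1 of 6 was called higher in library 1 (Sirpb1a, 11 UMIs against 5). In library 2, 1 of 5 was called lower (Treml4, 2 UMIs or 16.6 CPM against 161 CPM). Over all compared genes these shares were 13.4% and 6.55%. Sirpb1a passed the 50 CPM limit only through the class in which it was high (64.6 against 2.07 CPM). The downstream kinase gene Syk had 270 against 244 CPM and 191 against 258 CPM and was within 2-fold in both libraries. Among regulators, Nr1h3, which encodes the oxysterol receptor LXR alpha, was lower in both libraries, at 123 and 49.8 CPM against 512 and 397 CPM. Pparg was called higher in library 1 (117 against 51.6 CPM) and was under the 50 CPM limit in library 2, where it was at 33.2 against 44.2 CPM. Atf3 was called higher in library 2 (58.1 against 10.4 CPM, 5.58-fold) and was under the limit in library 1 (41.1 against 7.85 CPM, 5.23-fold). The 1 of 6 and 1 of 5 compared regulators called higher are near the share over all compared genes. Another 1 of 6 and 1 of 5 (Nr1h3) were called lower, against 6.05% and 6.55% of all compared genes. Of the other genes often listed with lipid-associated macrophages, 5 were compared per library. Cd5l was lower in both, at 434 and 788 CPM against 4997 and 5441 CPM, and 1 cell held 39 of the 74 and 1 cell 59 of the 95 UMIs of the smaller class. Itgax was called higher in library 1 (76.3 against 6.61 CPM). In library 2 it was under the limit, at 41.5 against 1.95 CPM (21.3-fold, 5.13 to 83.6). Capg was called higher in library 2 (133 against 33.5 CPM). In library 1 Capg was not, at 41.1 against 40.5 CPM and under the limit. Spp1, which encodes osteopontin, had 7 UMIs (41.1 CPM) in the cells without Clec4f or Timd4 against 70.2 CPM in library 1, and 2 UMIs (16.6 CPM) against 9.75 CPM in library 2.

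**Figure D5:**
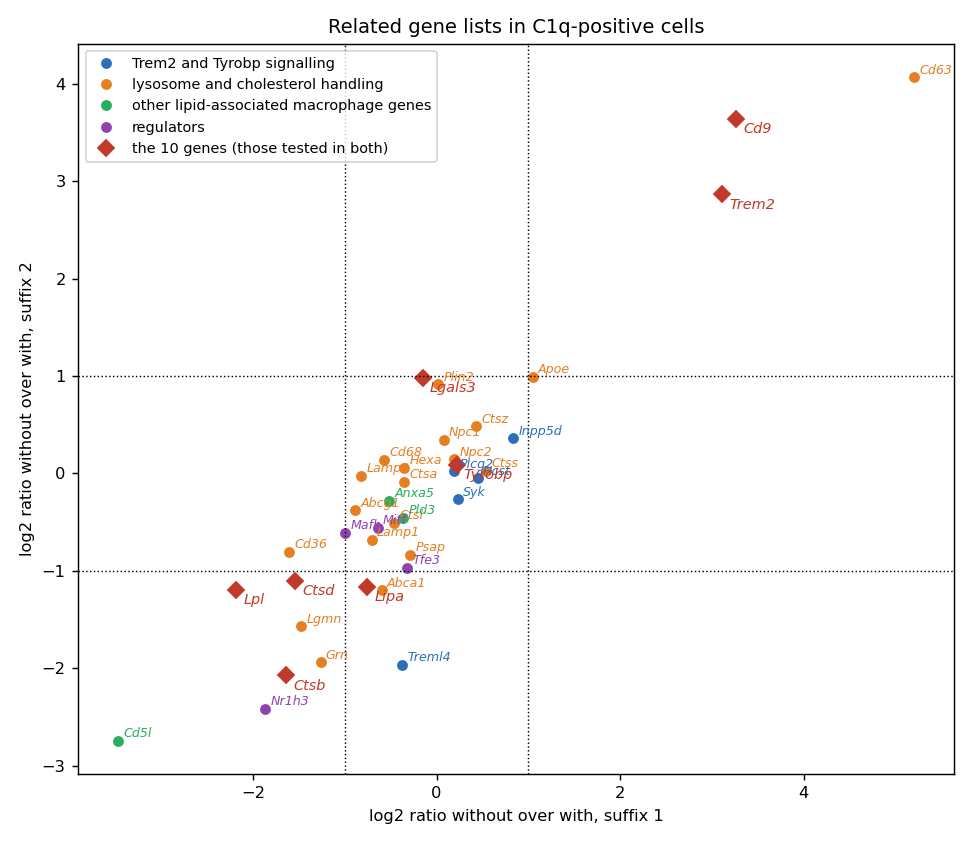
Log2 ratio of C1q-positive cells without over with Clec4f or Timd4 in library 1 (x axis) and library 2 (y axis), for 31 related genes (circles, coloured by list) and 8 members (red diamonds) compared in both libraries, with dotted lines at a 2-fold difference. Cd63, Cd9 and Trem2 lie at the upper right, and Cd5l, Nr1h3, Ctsb, Grn and Lgmn at the lower left.

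In the GENCODE M21 annotation of GRCm38, the genes lie at chr17:48346401-48354147 (Trem2), chr7:30413760-30417585 (Tyrobp), chr6:49036546-49070929 (Gpnmb), chr6:125460266-125494791 (Cd9), chr14:47367751-47386160 (Lgals3), chr3:10012548-10016607 (Fabp5), chr8:68880491-68907448 (Lpl), chr19:34492318-34527474 (Lipa), chr14:63122462-63145923 (Ctsb) and chr7:142375911-142388038 (Ctsd). All 10 are protein coding. Cd9 and Fabp5 have a related copy in the annotation (Cd9-ps and Fabp5l2), and Ctsd overlaps Gm49369 on the same strand, so reads could have been divided between these and their values are uncertain to that extent.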

How the data were processed

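The deposited matrix held whole-number UMI counts per gene and barcode of 2 joined libraries. Per the labels, the authors' processing used Cell Ranger 7.1.0, STAR 2.7.2a, bcl2fastq 2.20.0 and mm10. Whether intronic reads were counted is not stated there. Barcodes were filtered as stated above and gated by marker lists, each needing at least 3 UMIs from at least 2 genes and a set share of the cell's UMIs. Cells passing more than 1 gate were left out, except C1q-positive cells also passing the monocyte or conventional dendritic cell gate and T cells passing the NK gate. No doublet caller was used, so doublets may remain. Classes under 20 cells (cholangiocytes) were given no level. UMIs were summed per class and library, and no test was made. Intervals are exact Poisson for levels, Clopper-Pearson for shares and conditional binomial for ratios, at 95%. Python 3.11.15, numpy 2.4.6, scipy 1.17.1 and pandas 2.3.3 were used.

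The members, gates and lists were chosen with earlier results of these data known. Genes named besides the members were the 5 highest and 5 lowest ratios with the same sign in both libraries (mitochondrial, ribosomal protein and gate genes left out), the genes most alike each member, and those called in the related lists. Of the listed genes of lysosome and cholesterol handling, 1 is not reported here and was left out of the counts. The 2-fold rule was tested on simulated data, where it found raised genes more often than lowered ones and called some unchanged genes. Alternatives changed the mitochondrial limit, gates, depth, free RNA and the 2-fold rule.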

Additional observations from a re-analysis of the deposited data

Results flagged for a closer look

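Droplets over the mitochondrial limit, which no comparison above used, held signal of the 10 genes. In library 1, 34 such droplets passed the C1q gate, and the summed level of the members in them was 4591 CPM (4357 to 4833), against 381 CPM in 5 B-cell droplets over the limit and 9228 CPM in kept C1q-positive cells. In library 2, 45 such droplets had 5299 CPM (5027 to 5581), against 361 CPM in 12 B-cell droplets and 9664 CPM in kept cells. They held 9 and 8 UMIs of Trem2 and 0 of Gpnmb.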

How the results depend on the processing

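Of 130 recomputed counts of members, 126 stayed within 1.5 times the value reported and 4 did not. Members called lower in library 2 numbered 2 when only cells of at least 5000 UMIs were used (12 cells without Clec4f or Timd4) and 2 when cells with a hepatocyte share of at least 3% were left out (10 cells). Members called lower in library 1 numbered 1 after thinning to 2000 UMIs before the split (19 cells). Why the lower counts changed was not tested. Members called higher in library 1 numbered 4 with a limit of 10 CPM, which let in Gpnmb (2 UMIs against 0) and Fabp5 (7 against 21). Both are low genes, which the added UMIs move toward a higher call. Of 270 log2 ratios of single members under 15 other settings, 0 of those called changed direction and 28 left their counting interval. The log2 ratios spanned 2.92 to 4.62 and 2.69 to 3.77 (libraries 1 and 2) for Trem2, 2.83 to 4.09 and 3.06 to 5.39 for Cd9, -1.82 to -1.13 and -2.46 to -1.83 for Ctsb, -1.70 to -0.78 and -1.70 to -0.46 for Ctsd, -3.44 to -0.97 and -3.21 to -0.91 for Lpl, and -0.90 to -0.23 and -1.74 to -0.99 for Lipa. Those of Lgals3 spanned -0.87 to 0.28 and -0.05 to 1.31, on both sides of 0. Leaving out the cell of the smaller class with most UMIs of a gene, chosen after seeing the data, moved the log2 ratio of Trem2 to 2.85 and 2.72, of Lpl to -3.20 and -1.62, of Ctsd to -2.00 and -1.60 and of Lgals3 to -0.63 and 0.16. The B-cell count has no value under means over cells or under subtraction of the B-cell level, and the limit of 20 cells per class was not applied to alternatives. No paired analysis was possible because there is 1 library per sample and no test.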
